A study of Mus with 8 samples.

Results

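The 37 genes described here encode machinery of cell division: they copy DNA, supply its nucleotides, and build and police the mitotic spindle. They were taken by gene symbol from the authors' deposited comparison tables, and 37 of 37 were found among 14980 genes that these tables name. Where a gene had several probesets, the brightest on average over the 8 arrays stood for it. All 37 were among the 11235 genes bright enough to be tested.

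The material was skin with its hair follicles from male C57BL/6 mice, on Affymetrix HT_MG-430_PM arrays. The labels give the mice as 6 weeks old before 7 days of acclimatization, and elsewhere as 7 weeks old. After the hair was removed, 4 groups of 5 mice were treated topically for 20 days with 1% microsphere keratin, 1% keratin, 1% minoxidil or MilliQ water. The water group is called untreated here. Minoxidil is a vasodilator applied against hair loss and was the positive control, and keratin is the structural protein of hair. The labels do not describe how the microsphere form was made. Each group has 2 arrays, numbered 1 and 2. Nothing in the labels says whether the arrays of a group are separate mice, pools or repeat hybridisations of one extract, so the p-values rest on the spread between these arrays alone, which may be technical.

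Dividing cells switch these genes on in a wave. Licensing and replication genes rise as a cell leaves G1 and enters S phase under E2F transcription factors, and cyclin B, spindle and kinetochore genes follow in G2 and mitosis. In growing hair follicles the matrix at the base of the bulb is among the most rapidly dividing tissues of the body, whereas resting follicles divide little, so transcripts of this kind in skin follow the hair cycle closely. In whole skin, fewer dividing cells and less of each RNA per dividing cell cannot be told apart.

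Array quality varied. Over all probesets, minoxidil array 1 had an r of 0.390 to 0.474 with the remaining 7 arrays, which had 0.886 to 0.988 among themselves. Beta-actin, by its 3′ control probeset, was at 47.2 there, at 1448 to 1883 in 6 arrays and at 656 in untreated array 1. Hair matrix, basal keratinocyte and fibroblast markers were present in the skin, and fast muscle genes were bright, with a mean log2 intensity over 8 genes of 4.86 in minoxidil array 1 and 8.27 to 11.00 in the others. The array's control probesets for nonspecific binding read 20.0 to 57.0, and 27 of 37 cell division genes exceeded all of them in their brightest array, which for most was microsphere keratin array 2, and 17 of 37 did so by their mean over the 8 arrays. The 10 that never exceeded them all were Aurka, Bub1, Ccnb2, E2f1, Mcm6, Ndc80, Nuf2, Nusap1, Racgap1 and Tyms, so differences in these genes lie within the range of nonspecific signal. The lowest probeset of each array read 13.8 to 22.5 rather than near 0, so log2 differences of dim genes are understated.

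No cell division gene passed the test in any comparison, but microsphere keratin array 2 stood above the other arrays in nearly the whole set. It held the highest of the 8 values for 33 of 37 genes, against 22.7% of all genes tested. The 4 exceptions were E2f8 and Hmmr, highest in minoxidil array 1, Kif11, highest in untreated array 1, and Racgap1, highest in keratin array 1. By its other named probesets, Kif11 was highest in microsphere keratin array 2. Among the number 2 arrays alone, microsphere keratin was above the other 3 groups for 37 of 37 genes, against 32.6% of all genes. Microsphere keratin array 1 did not share this level: it was above keratin array 1 in 12 of 37 genes (42.6% of all genes), above untreated array 1 in 17 of 37 (73.6%), and below both of those arrays in 16 of 37 (20.5%). For number 1 the genes that the authors' deposited table lists run otherwise, as given further on. The gene names come from tables that list probesets past a fold in these same samples, so neither the genes tested nor the members are independent of the data.

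**Figure D1:**
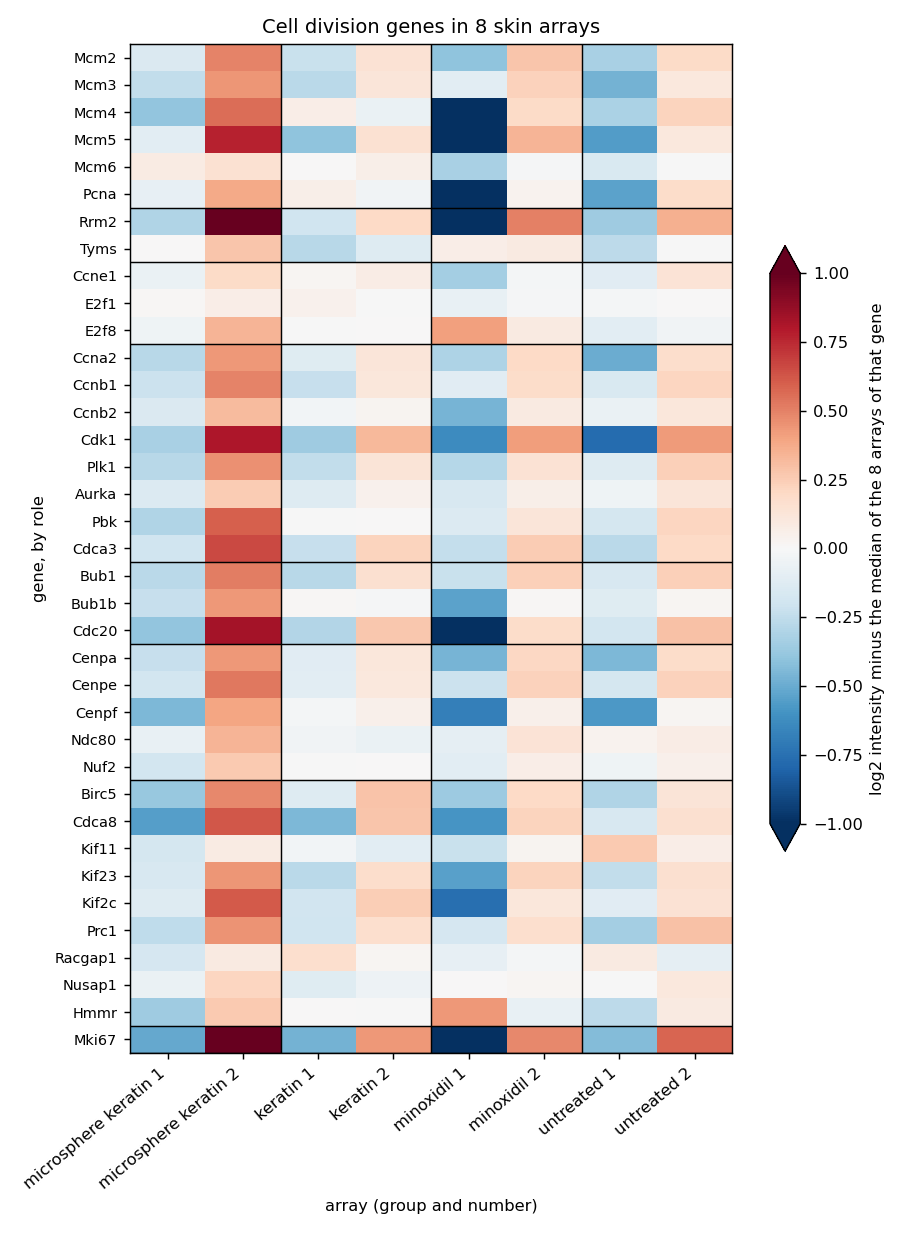
Log2 intensity of the 37 cell division genes (rows, by role, separated by lines) in the 8 arrays (columns, by group), each minus that gene's median over the 8 arrays. Colours saturate at 1 in either direction. The microsphere keratin array 2 column holds the highest value for 33 of 37 genes, while microsphere keratin array 1 exceeds keratin array 1 in 12 of 37.

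Mki67, the antigen Ki-67 that coats mitotic chromosomes and is widely used to mark dividing cells, had linear intensities of 93.5 and 285 in microsphere keratin arrays 1 and 2, 96.0 and 180.1 in keratin arrays 1 and 2, 46.8 and 186 in minoxidil arrays 1 and 2, against 98.8 and 199.6 in untreated arrays 1 and 2. Its level was highest in microsphere keratin array 2 and lowest in minoxidil array 1, and the values of all groups overlapped. The mean log2 difference of microsphere keratin from keratin was 0.31 ± 0.87 (SE, n = 2 each), well inside its error, and from untreated 0.22 ± 0.87 (SE, n = 2 each). Every SE given here comes from limma and pools the spread within all 4 groups, not only the groups compared. For Mki67 the minoxidil arrays had the largest SD, 1.41 on the log2 scale. Without microsphere keratin array 2 the mean differences turned to -0.49 and -0.59.

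Of the members, 6 act in replication licensing and at the fork. Pcna, the sliding clamp that holds DNA polymerase on its template, had intensities of 115 and 159 in the microsphere keratin arrays, 128 and 119 in the keratin arrays, 42.1 and 125 in the minoxidil arrays, against 84.3 and 139 in the untreated arrays. The microsphere keratin range enclosed both keratin values and the higher untreated value. Mcm4 and Mcm2 are subunits of the MCM helicase, which is loaded on origins in G1 and unwinds DNA in S phase. Mcm4 read 48.9 and 94.5 under microsphere keratin, 67.4 and 61.4 under keratin, 23.2 and 73.3 under minoxidil, against 51.5 and 75.2 in untreated skin. Mcm2 stood at 52.2 and 81.3 in microsphere keratin skin, 49.4 and 64.0 in keratin skin, 43.8 and 69.95 in minoxidil skin, against 46.1 and 66.0 in untreated skin. Both were brightest in microsphere keratin array 2. Among the number 1 arrays, microsphere keratin was below keratin for Mcm4 and the brightest for Mcm2. Mcm6, another helicase subunit, read 43.1 and 45.4 in microsphere keratin arrays 1 and 2, 40.9 and 42.5 in keratin arrays, 32.6 and 40.5 in minoxidil arrays, against 36.8 and 40.7 in untreated arrays. It was the one licensing gene with both microsphere keratin values above both keratin and both untreated values, though the differences were small, at 0.09 ± 0.14 and 0.19 ± 0.14 on the log2 scale (SE, n = 2 each) and all its values were within the range of the nonspecific controls. Mcm5, a helicase subunit named after its values were seen, had intensities of 48.6 and 89.1 in the microsphere keratin arrays, 39.6 and 57.9 in the keratin arrays, 24.0 and 66.1 in the minoxidil arrays, against 35.4 and 56.1 in the untreated arrays. Here microsphere keratin was the higher group within each number, and the difference from keratin was 0.46 ± 0.49 on the log2 scale (SE, n = 2 each). Mcm3 ranged from 31.3 to 59.3 and was also highest in microsphere keratin array 2.

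Nucleotide supply was represented by Rrm2, the small subunit of ribonucleotide reductase that is made in S phase, and Tyms, the thymidylate synthase that makes dTMP. Rrm2 read 70.9 and 191 under microsphere keratin, 76.1 and 100.4 under keratin, 24.4 and 124 under minoxidil, against 68.4 and 112 in untreated skin. Of the 37 genes it had the largest excess in microsphere keratin array 2 over the mean of the other number 2 arrays, 0.77 on the log2 scale or 1.71-fold, and its array 1 values lay together outside minoxidil. Between microsphere keratin and keratin arrays 2 this Rrm2 probeset differed by 0.93 on the log2 scale, and its other named probesets by 0.53 and 0.13. Tyms stood at 38.1 and 46.1 in microsphere keratin skin, 31.3 and 34.8 in keratin skin, 39.8 and 40.6 in minoxidil skin, against 31.8 and 38.0 in untreated skin. Both microsphere keratin values of Tyms were above both keratin and both untreated values, and only array 2 was above both minoxidil values. Tyms was the only cell division gene with an unadjusted p below 0.05 in any of the 4 comparisons: it was higher in microsphere keratin than in keratin by 0.34 ± 0.13 on the log2 scale (SE, 2 arrays each). The limma adjusted p of this difference was 1, and unadjusted it was 0.0316. No value of Tyms exceeded the highest nonspecific control. The other named probeset of Tyms read 28.1 and 29.4 in microsphere keratin arrays, against 27.8 and 28.8 in keratin arrays, within the same range.

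A further 3 genes regulate entry into S phase. Ccne1, cyclin E1, which drives cells into S phase with Cdk2, read 69.99 and 83.6 in microsphere keratin arrays 1 and 2, 74.1 and 77.3 in keratin arrays, 57.9 and 72.4 in minoxidil arrays, against 67.8 and 80.4 in untreated arrays. E2f1, a transcription factor that activates replication genes, had intensities of 49.6 and 51.7 in the microsphere keratin arrays, 50.8 and 49.2 in the keratin arrays, 46.8 and 49.0 in the minoxidil arrays, against 48.7 and 49.3 in the untreated arrays. Its values never exceeded the highest nonspecific control, so their small spread does not show how far E2f1 itself varied. E2f8, an atypical E2F that represses E2F targets, read 52.1 and 68.0 under microsphere keratin, 53.5 and 53.9 under keratin, 71.2 and 57.2 under minoxidil, against 50.01 and 52.4 in untreated skin. Its highest value was in minoxidil array 1, the array that stood apart, and both keratin and both minoxidil values exceeded both untreated values.

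A further 8 genes are mitotic cyclins, kinases or regulators of mitotic entry. Cdk1, the kinase that drives entry into mitosis, stood at 59.2 and 129 in microsphere keratin skin, 57.9 and 92.5 in keratin skin, 47.9 and 98.8 in minoxidil skin, against 43.4 and 99.7 in untreated skin. Ccna2, cyclin A2, which partners Cdk2 and then Cdk1, read 60.4 and 98.7 in microsphere keratin arrays 1 and 2, 67.4 and 79.5 in keratin arrays, 59.1 and 83.9 in minoxidil arrays, against 51.9 and 82.9 in untreated arrays. Both genes were brighter in every number 2 array than in any number 1 array, and brightest in microsphere keratin array 2. Cdca3, which promotes mitotic entry through degradation of the kinase Wee1, had intensities of 56.0 and 102 in the microsphere keratin arrays, 54.9 and 75.2 in the keratin arrays, 54.5 and 76.7 in the minoxidil arrays, against 53.4 and 73.8 in the untreated arrays. By this probeset it followed the same order. The other named probesets of Cdca3 were highest in keratin array 1, at 45.0 and 49.7, within the range of the nonspecific controls. Cyclins Ccnb1 and Ccnb2, the kinases Plk1 and Aurka, which build the spindle, and the mitotic kinase Pbk all had their highest value in microsphere keratin array 2, at 45.0 (Aurka) to 94.8 (Pbk). Their excess over the mean of the other number 2 arrays was 0.18 (Aurka) to 0.48 (Pbk) on the log2 scale.

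The spindle checkpoint holds anaphase until each chromosome is attached. Cdc20, which activates the anaphase-promoting complex once the checkpoint is released, read 111 and 259.5 under microsphere keratin, 119.5 and 176 under keratin, 28.9 and 166 under minoxidil, against 129 and 179 in untreated skin. Bub1b, the checkpoint protein BubR1, stood at 49.7 and 78.7 in microsphere keratin skin, 58.8 and 57.9 in keratin skin, 40.3 and 59.0 in minoxidil skin, against 53.6 and 59.1 in untreated skin. Bub1, a kinase of the same checkpoint, read 29.3 and 50.4 in microsphere keratin arrays 1 and 2, 29.1 and 39.4 in keratin arrays, 30.1 and 41.6 in minoxidil arrays, against 31.5 and 41.6 in untreated arrays. All 3 were brightest in microsphere keratin array 2, by 0.58, 0.42 and 0.30 on the log2 scale over the mean of the other number 2 arrays for Cdc20, Bub1b and Bub1, and in all 3 microsphere keratin array 1 lay below untreated array 1.

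At the centromere and kinetochore, Cenpf, a large outer kinetochore protein, had intensities of 47.4 and 85.0 in the microsphere keratin arrays, 63.8 and 67.0 in the keratin arrays, 40.3 and 67.1 in the minoxidil arrays, against 43.4 and 65.8 in the untreated arrays. Cenpa, the histone H3 variant that marks centromeres, read 45.1 and 71.3 under microsphere keratin, 48.8 and 57.2 under keratin, 38.3 and 60.9 under minoxidil, against 38.7 and 60.1 in untreated skin. Cenpe, a kinesin that carries chromosomes to the spindle equator, stood at 42.8 and 70.2 in microsphere keratin skin, 45.4 and 52.3 in keratin skin, 41.9 and 57.3 in minoxidil skin, against 43.2 and 57.0 in untreated skin. The 3 shared the maximum in microsphere keratin array 2, and Cenpf array 1 was brighter in keratin than in microsphere keratin. Ndc80, which binds microtubules at the kinetochore together with Nuf2, read 34.4 and 45.8 in microsphere keratin arrays 1 and 2, 35.4 and 34.6 in keratin arrays, 34.1 and 39.9 in minoxidil arrays, against 37.2 and 38.2 in untreated arrays. Its keratin values both lay below its untreated values, and its difference of microsphere keratin from keratin, 0.18 ± 0.15 on the log2 scale (SE, n = 2 each), had the second smallest p among the members, at intensities within the range of the nonspecific controls. Nuf2 ranged from 38.8 to 52.7 and was also highest in microsphere keratin array 2.

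Of the genes of the chromosomal passenger complex, spindle motors and cytokinesis, Cdca8, the passenger subunit Borealin, had intensities of 46.4 and 104 in the microsphere keratin arrays, 49.7 and 82.2 in the keratin arrays, 45.1 and 79.1 in the minoxidil arrays, against 60.8 and 75.6 in the untreated arrays. Birc5, the passenger subunit Survivin, read 46.1 and 83.5 under microsphere keratin, 54.9 and 73.0 under keratin, 46.6 and 68.8 under minoxidil, against 48.6 and 65.5 in untreated skin. Kif2c, a kinesin that takes microtubules apart and corrects faulty attachments, stood at 58.7 and 97.8 in microsphere keratin skin, 56.0 and 76.1 in keratin skin, 38.0 and 69.3 in minoxidil skin, against 59.2 and 70.6 in untreated skin. In these 3 genes microsphere keratin array 2 was the brightest and microsphere keratin array 1 lay below untreated array 1. Kif11, the kinesin Eg5 that pushes spindle poles apart, read 50.1 and 60.00 in microsphere keratin arrays 1 and 2, 55.6 and 52.5 in keratin arrays, 48.6 and 57.7 in minoxidil arrays, against 68.1 and 59.4 in untreated arrays. By this probeset it did not follow the others, and untreated array 1 was brightest. Both keratin and both minoxidil values were below both untreated values. The other named probesets of Kif11 were brightest in microsphere keratin array 2, at 68.6 and 44.1. In those probesets the keratin and minoxidil values overlapped the untreated ones. Nusap1, which bundles spindle microtubules, had intensities of 39.6 and 48.1 in the microsphere keratin arrays, 38.1 and 39.9 in the keratin arrays, 41.4 and 42.0 in the minoxidil arrays, against 41.4 and 44.6 in the untreated arrays. Its keratin values lay just below its untreated values. Kif23 and Prc1, which organise the midzone between separating chromosomes, peaked in microsphere keratin array 2 at 67.2 and 67.0. Racgap1, which signals the cleavage furrow, read between 33.9 and 42.7, within the range of the nonspecific controls, and Hmmr, a spindle assembly protein, read 76.5 in minoxidil array 1 and 44.5 to 68.1 elsewhere.

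**Figure D2:**
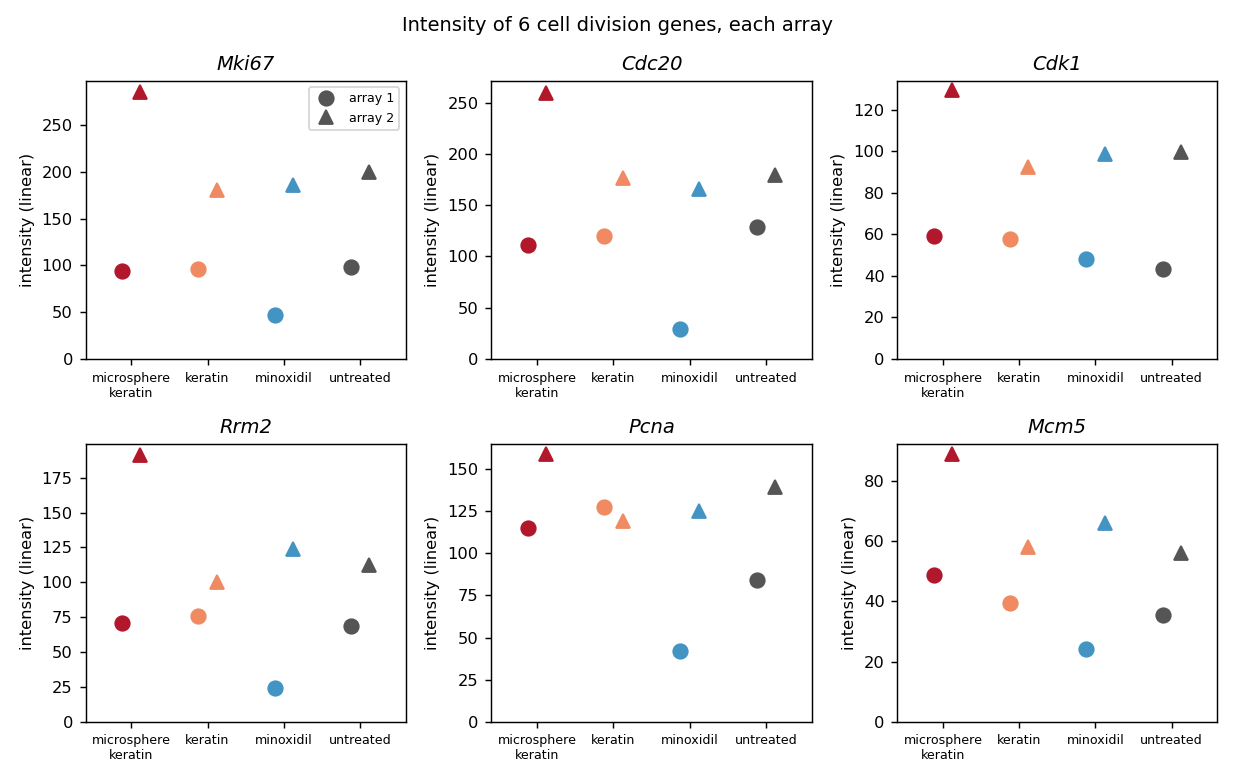
Linear intensity (vertical axis, from 0) of 6 cell division genes in each group (horizontal axis). Circles are array 1 and triangles array 2, 1 point per array. In all 6 the triangle of microsphere keratin is the highest point, for example 285 for Mki67, and its circle lies well below it, at 93.5 for Mki67.

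The size of the step in microsphere keratin array 2 is given here by role and brightness, as a description. Over the 37 genes its median excess above the mean of keratin, minoxidil and untreated arrays 2 was 0.29 on the log2 scale, with a range of 0.07 to 0.77, against a median of 0.01 for all genes tested. In 35 of 37 genes this excess was larger than the whole range among those 3 arrays, whose median was 0.12. The share of all genes that do so was not counted, so this count has no background to be read against. Microsphere keratin array 2 was above all 3 in 32.6% of all genes. By role the median excess was 0.60 for Mki67, 0.53 for nucleotide supply, 0.42 for the spindle checkpoint, 0.31 for mitotic cyclins and kinases, 0.305 for licensing and fork, 0.29 for the kinetochore, 0.26 for spindle motors and cytokinesis and 0.125 for the S-phase regulators. The 19 genes of higher intensity had a median of 0.40 and the 18 dimmer ones, whose differences are more understated, 0.25. Other named probesets of these genes, 35 in all, come from the same arrays and were named by the same fold rule. They are therefore not independent support. In them microsphere keratin array 2 was above keratin array 2 in 31 of 35 (50.9% of all genes), by a median of 0.16 on the log2 scale. It was the highest of 8 in 21 of 35 (22.7% of all genes). Most of these probesets never exceeded the highest nonspecific control, 57.0.

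Array number was the other large axis. Array 2 was above array 1 in 37 of 37 genes for microsphere keratin (60.3% of all genes), 29 of 37 for keratin (61.1%), 35 of 37 for minoxidil (74.1%) and 35 of 37 for untreated skin (80.7%). All 4 number 2 arrays were above all 4 number 1 arrays in 24 of 37 genes (26.8% of all genes), and in 25 of 37 with the minoxidil arrays left out (31.2%). The mean log2 intensity over the 37 genes was 5.61 and 6.28 in microsphere keratin arrays 1 and 2, 5.69 and 5.92 in keratin arrays, 5.35 and 5.98 in minoxidil arrays, against 5.60 and 5.98 in untreated arrays. The labels do not say what the numbers stand for, and 2 of the 4 number 1 arrays were those low in beta-actin. The part of array quality in this order was not tested.

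Microsphere keratin was set against keratin, which asks whether the microsphere form differs from the plain protein at the same 1%. Limma called 0 of 37 genes at an adjusted p below 0.05, as it called 0% of the 11235 genes tested, and 1 of 37 (Tyms) at an unadjusted p below 0.05, against 0.125% of all genes. Over the 4 comparisons that share was 0.089% to 0.445%, far less than the threshold allows without any change. The test was thus conservative, and an absent call does not show absent change. Here 14 genes had an unadjusted limma p below 0.05, 81 with array weights and 52 with only the groups compared fitted. Adjusted p-values of the members lay between 0.9999 and 1 in all 4 comparisons. Group means were higher in microsphere keratin for 33 of 37 genes, against 45.6% of all genes, with a median log2 difference of 0.15 against -0.01. Both arrays exceeded both keratin arrays in only 2 of 37, Mcm6 and Tyms (5.09% of all genes), and lay below them in 0 of 37 (10.5%). Neither Mcm6 nor Tyms exceeded the highest nonspecific control in any array. Within number 2, 37 of 37 genes were higher (50.9% of all genes), by a median of 0.34, and within number 1 the median was -0.055. Without microsphere keratin array 2 the median over the genes turned to -0.187, and without array 1 it was 0.47. The differences of Rrm2, Cdc20, Cdk1, Pcna and Ndc80 turned as well without array 2, to -0.30, -0.39, -0.305, -0.10 and -0.02. Leaving out keratin array 1 turned Mki67 to -0.14, Cdc20 to -0.05 and Cdk1 to -0.08.

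**Figure D3:**
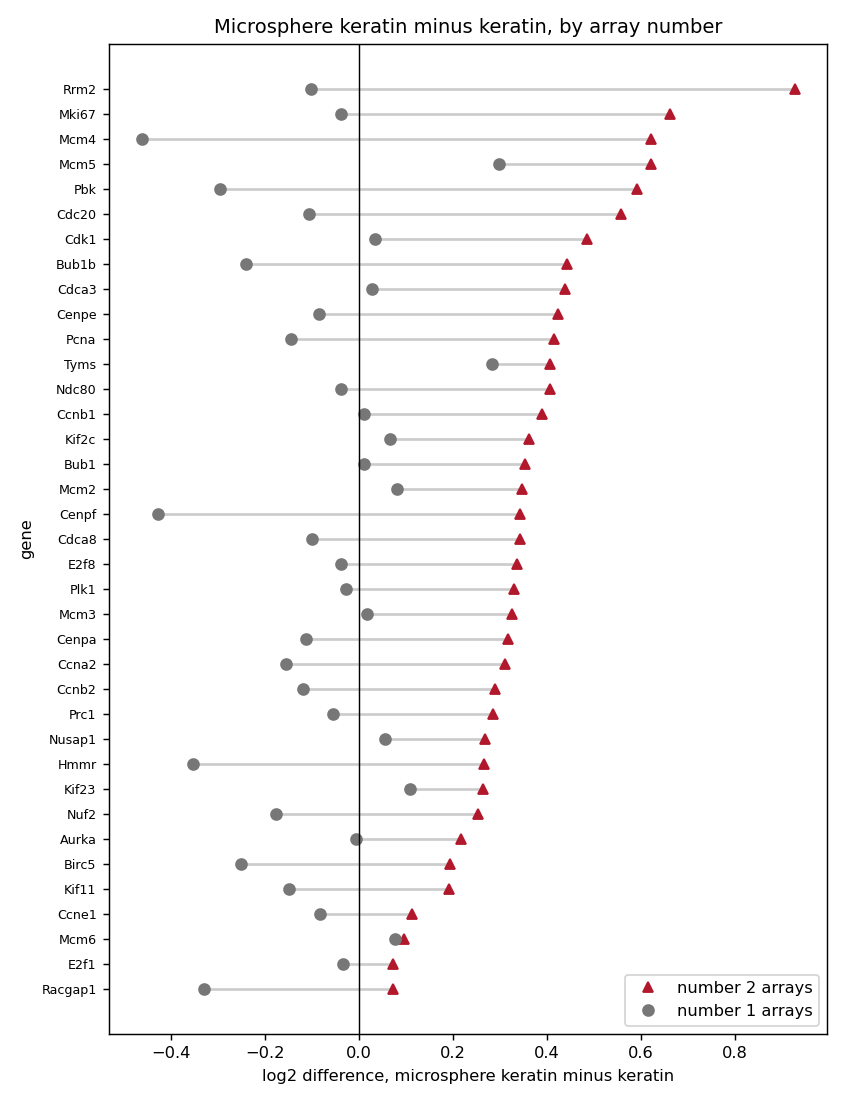
Log2 difference of microsphere keratin minus keratin for each of the 37 genes (rows), within the number 1 arrays (grey circles) and within the number 2 arrays (red triangles), 1 array on each side. All 37 triangles lie right of 0, with a median of 0.34, while the circles scatter around it with a median of -0.055, and 12 of 37 are right of 0.

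Against untreated skin, limma called 0 of 37 genes for microsphere keratin at an adjusted p below 0.05 (0% of all genes) and 0 of 37 at an unadjusted p below 0.05 (0.089%). Means were higher for 35 of 37 genes, but also for 75.8% of all genes, with a median difference of 0.14 among the members and 0.10 over all genes on the log2 scale. The arrays did not overlap in 3 of 37 genes, all higher, namely Mcm6, Tyms and E2f1, against 14.7% of all genes, and 0 of 37 were lower without overlap (5.24%). None of these 3 genes exceeded the highest nonspecific control in any array. After quantile normalization the median difference of the members was 0.043, against 0.021 over all genes, and that of Mki67 was 0.001. Within number 2, microsphere keratin was above untreated in 37 of 37 genes (55.3% of all genes), by a median of 0.28. Within number 1 the median was -0.015, where all genes had 0.17. Untreated array 1 was one of the arrays low in beta-actin. Without it the median difference was -0.05, and without microsphere keratin array 2 it was -0.17.

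Keratin against untreated skin showed no common direction. Limma called 0 of 37 genes at an adjusted p below 0.05 (0%) and 0 of 37 at an unadjusted p below 0.05 (0.409% of all genes). Means were higher in 20 of 37 genes against 75.8% of all genes, and the median log2 difference was 0.015 against 0.10 over all genes. Mcm6 and E2f8 were higher without overlap, 2 of 37 against 20% of all genes, and Ndc80, Kif11 and Nusap1 lower without overlap, 3 of 37 against 5.22%. Kif11 differed by -0.24 ± 0.22 and Nusap1 by -0.14 ± 0.14 on the log2 scale (SE, n = 2 each). Keratin array 1 was above untreated array 1 in 24 of 37 genes (79.2% of all genes), and keratin array 2 above untreated array 2 in 11 of 37 (54.3%). Mcm6, Ndc80 and Nusap1 never exceeded the highest nonspecific control. The keratin and untreated values of E2f8, 50.01 to 53.85, and the keratin values of Kif11, 55.56 and 52.55, were also below it. By its other named probesets, Kif11 overlapped in this comparison. Without untreated array 1 the median turned to -0.185, and after quantile normalization to -0.079.

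Minoxidil against untreated skin included the array that stood apart. Limma called 0 of 37 genes at an adjusted p below 0.05 (0%) and 0 of 37 at an unadjusted p below 0.05 (0.445% of all genes). Means were higher in 12 of 37 genes against 45.7% of all genes, with a median log2 difference of -0.04, which was -0.083 after quantile normalization. Tyms and E2f8 were higher without overlap (2 of 37, against 7.51% of all genes) and Kif11 lower (1 of 37, against 4.34%). The other named probesets of these genes overlapped. Tyms never exceeded the highest nonspecific control. Minoxidil array 1 was above untreated array 1 in 11 of 37 genes (41.4% of all genes). Minoxidil array 2 was above untreated array 2 in 17 of 37 genes (60.5%), with a median difference of -0.004. Without minoxidil array 1 the median was 0.19. The 3 comparisons with untreated skin share the same 2 control arrays.

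The authors' deposited tables compare single arrays of the same number and list only probesets past a fold threshold. In the authors' deposited table of microsphere keratin against untreated for number 2, 33 of the 37 chosen probesets were listed and 33 of 33 were higher, by 1.31-fold to 2.49-fold, where 54.4% of its 7639 rows were higher. The largest folds of chosen probesets in the authors' deposited table were those of Mcm5 (2.49), Bub1 (2.39) and Tyms (2.11). The authors' deposited levels are on an unlike scale, with log2 differences of 1.31, 1.25 and 1.08 for these 3 genes. In the value table the same arrays differed by 0.67, 0.28 and 0.28 on the log2 scale. Bub1 and Tyms never exceeded the highest nonspecific control. The authors' deposited table also lists 22 other probesets of these genes, 20 higher, among them one of Mcm6 at 2.51, and 2 lower, both of Hmmr, at signed folds of -1.7 and -2.4. The authors' deposited table of keratin for number 2 listed 6 chosen probesets, where 52.9% of its 8069 rows were higher. Of these, Birc5 and Mcm6 were higher, both 1.31-fold, and Mcm4, Nusap1, Ccnb2 and Ndc80 were lower, at signed folds of -1.51 to -1.33. In this table of the authors 9 other probesets of members were listed, 4 higher, up to 1.8, and 5 lower, down to -2.71 (Hmmr). In the authors' deposited table of minoxidil for number 2 the only chosen probeset listed was that of Mcm5, at 1.52, where 63.3% of its 5646 rows were higher. In this table of the authors 5 other probesets of members were listed. Of these, 3 were higher, up to 1.56, and 2 were lower, both of Hmmr, at signed folds of -2.06 and -3.26. For number 1, the authors' deposited table of microsphere keratin listed 13 chosen probesets, 13 of 13 higher. In this table of the authors the folds were 2.26 to 9.67 with a median of 3.15, including Mki67 at 7.34 and Pcna at 9.67. The untreated log2 level in the authors' deposited table was the same 0.45 for Cdca8, Cenpe, Mcm5 and Mcm6. It was 0.65 for Mki67 and 1.73 for Pcna, so several of these folds depend on low control values. The authors' deposited table of keratin for number 1 listed 15, 14 of 15 higher, with Cdca3 lower at -2.09. In this table of the authors the other Cdca3 probesets were higher, at 2.69 and 6.53. The authors' deposited table also lists 8 other probesets of members in all, 5 higher and 3 lower. Counting any probeset, the authors' deposited tables for number 1 listed 16 genes for microsphere keratin and 17 for keratin. The other probesets in the authors' deposited tables include 1 of E2f1 at -11.35 and -13.27. In the value table that E2f1 probeset read 37.4 in microsphere keratin array 1 and 36.0 in keratin array 1, against 38.95 in untreated array 1. These number 1 tables list folds of at least 2, have 89.5% and 88.1% of all their rows higher, and their control is the number 1 array by name. A further deposited table, named for minoxidil, holds the microsphere keratin comparison of number 1 from 1.3-fold on. In this table of the authors 27 chosen probesets were listed, 21 higher and 6 lower, where 58.5% of its 23341 rows were higher. The value table differed from these lists: of the 13 chosen probesets listed for microsphere keratin 7 were higher there than in untreated array 1, and of the 15 for keratin 11.

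Cell division genes outside the 37 showed a like order of arrays. These lists were also made with earlier results known. Microsphere keratin array 2 was highest of 8 arrays in 31 of 39 other replication genes, 37 of 50 other mitosis genes and 10 of 17 G1 cyclins, kinases and pocket proteins, against 22.7% of all genes, but in 1 of 13 inhibitors of the cell cycle. Limma called 0 genes of these 4 lists at an adjusted p below 0.05 in the 4 comparisons, and 0 had an unadjusted p below 0.05 in any of them. The median excess of that array over the mean of the other number 2 arrays was 0.24 for replication, 0.23 for mitosis and 0.16 for the G1 list, against -0.03 for the inhibitors on the log2 scale.

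Among these, Uhrf1, which guides DNA methylation to newly copied DNA, read 58.5 and 135 in microsphere keratin arrays, 53.2 and 72.05 in keratin arrays, 36.6 and 81.0 in minoxidil arrays, against 52.5 and 70.15 in untreated arrays. Mcm7, the helicase subunit not among the 37, read 118.5 and 281 in microsphere keratin arrays, against 108 and 174 in keratin arrays. Ccnd1, cyclin D1 of the G1 phase, read 132 and 177 in microsphere keratin arrays, against 154 and 94.6 in keratin arrays. Pttg1, the securin that guards sister chromatids, went the other way: it read 247 and 166 in microsphere keratin arrays, against 198.5 and 334 in keratin arrays, although it is a mitotic gene. Btg2, an antiproliferative gene, read 54.7 and 48.6 in microsphere keratin arrays, against 65.7 and 60.2 in keratin arrays. These groups did not overlap, but 10.5% of all genes were lower without overlap in this comparison. Btg2 was named for the largest difference among the inhibitors, and its microsphere keratin values were within the range of the nonspecific controls.

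Hair matrix markers, which label the dividing base of the follicle, were high in the same array. Of 11 hair matrix markers 11 were above keratin array 2 in microsphere keratin array 2 and 9 were highest of 8 arrays, against 22.7% of all genes. Their mean log2 intensity was 5.83 and 6.84 in microsphere keratin arrays 1 and 2, 5.93 and 6.35 in keratin arrays, 5.72 and 6.40 in minoxidil arrays, against 6.06 and 6.36 in untreated arrays. Shh, the hedgehog ligand of the growing follicle, read 42.2 and 137 in microsphere keratin arrays, 44.5 and 44.1 in keratin arrays, 34.0 and 71.25 in minoxidil arrays, against 51.65 and 46.0 in untreated arrays. Ptch1, the hedgehog receptor, read 63.1 and 194 in microsphere keratin arrays, against 62.3 and 114 in keratin arrays. By mean level microsphere keratin array 2 was the brightest array for these markers and for the cell division genes, and microsphere keratin array 1 for neither. The part of the hair matrix in the cell division result was not tested.

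Among the other cell type lists, hair shaft keratins shared that order in part. The rest stayed under the 22.7% of all genes that were highest in microsphere keratin array 2. Those lists are short, so their counts of 0 or 1 cannot be told from that share. Of the 8 basal epidermis markers 1 was highest in microsphere keratin array 2, Trp63, and of the 6 suprabasal markers 0, and their median excess there was -0.29 and -0.245 on the log2 scale. All 8 fast skeletal muscle genes were lower in that array than in keratin array 2, where 50.9% of all genes were higher. Their median log2 difference was -0.79. In microsphere keratin array 2, 0 of 5 leukocyte, 0 of 7 fibroblast, 0 of 3 endothelial and 1 of 6 sebaceous markers were highest. Hair shaft keratins had a median excess of 0.17 in that array, with 5 of 10 highest in it.

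**Figure D4:**
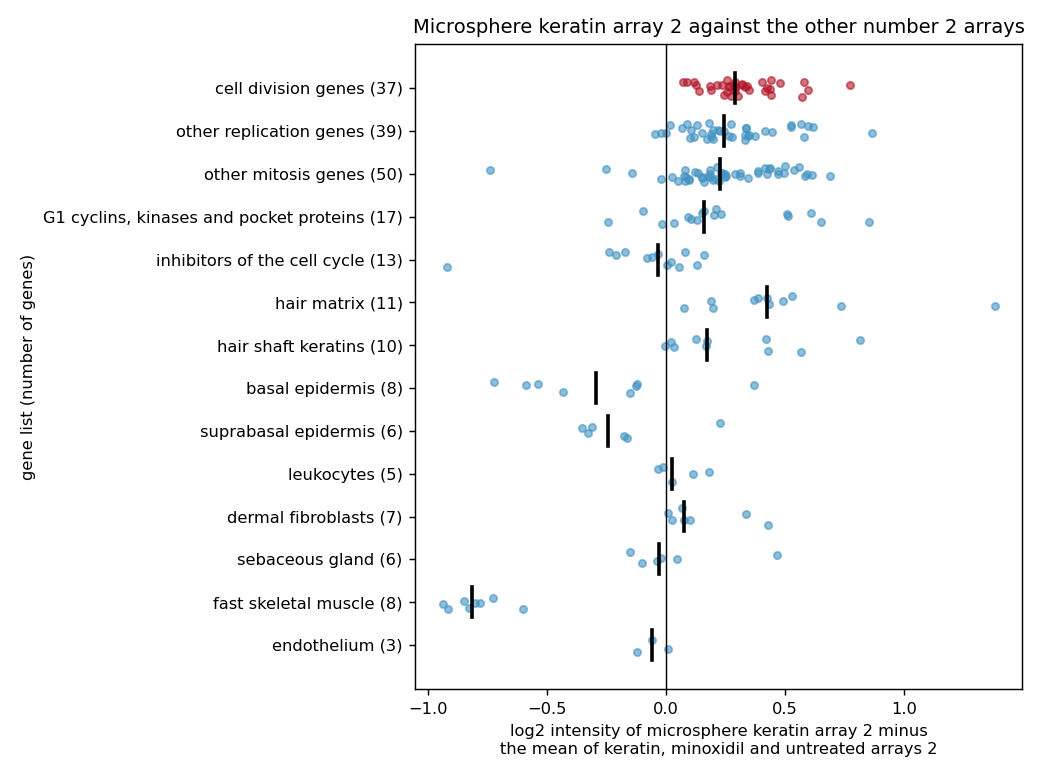
Log2 intensity in microsphere keratin array 2 minus the mean of keratin, minoxidil and untreated arrays 2 (horizontal axis) for each gene (points) of the lists (rows, number of genes in brackets); black bars are list medians and vertical jitter has no meaning. The 37 cell division genes all lie right of 0 with a median of 0.29, hair matrix markers have a median of 0.42, and fast skeletal muscle genes lie left of 0 with a median of -0.815.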

How the data were processed

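Total RNA of mouse skin was hybridised to HT_MG-430_PM arrays, 2 per group in 4 groups. The submitters' processing notes name Transcriptome Analysis Console, RMA and Affymetrix Expression Console, without versions. The deposited value table gives linear intensity for 45141 probesets; how background was removed and arrays were scaled is not given in the sources used here. The authors' deposited comparison tables hold log2 values of 1 array per side and a signed fold, a score that is negative where the treated side is lower. In 1 of them the authors give p-values too, and each equals 1. A table named for minoxidil number 1 carries microsphere columns and served for gene names and as a microsphere table.

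The members and the gene lists were chosen with earlier results of these data known. Names came from those tables, which list 28918 probesets, 23804 of them with 1 symbol, past a fold in these samples. Intensities were put on the log2 scale, the probeset with the highest mean was kept per gene, and the genes whose mean lay under the 25th percentile were left out. Limma 3.58.1 in R 4.3.3 fitted 4 group means over all 8 arrays (lmFit and trended eBayes, on 4 residual degrees of freedom), with Benjamini-Hochberg adjustment over 11235 genes and a threshold of 0.05. The fit was tested on simulated data. No permutation test was run, since 2 arrays against 2 allow no two-sided p under 0.333. Values in all arrays are given for up to 3 members per role with the highest mean and for the 2 with the smallest p in each comparison. From the other lists, up to 3 genes with the largest difference were eligible. Alternatives covered normalization, background, filter, probeset choice, variance model, array weights, a block for the array number, and leaving out each array. No 2 arrays held identical values. The number of arrays limits the precision, and no depth applies to intensities. Figures were drawn with matplotlib 3.10.9.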

Additional observations from a re-analysis of the deposited data

How the results depend on the processing

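With 2 arrays per group, 0 genes and 0 members were called in each comparison under every alternative run, except that leaving out single arrays gave 0 to 860 genes called for minoxidil against untreated. The 860 came without minoxidil array 2, where array 1 alone, assumed to vary like the other groups, stood for minoxidil; 0 of the 37 members were among them. The median member difference of microsphere keratin from keratin ran from -0.187 (without microsphere keratin array 2) to 0.466 (without array 1) when single arrays were left out, and from 0.113 to 0.156 otherwise. From untreated it ran from -0.169 to 0.485 with single arrays left out, and quantile normalization gave 0.043 in place of 0.142, with Mki67 at 0.001, Rrm2 at 0.205 and Pcna at 0.097; keratin against untreated turned to -0.079. For single genes the ranges with 1 array left out, against keratin, were -0.491 to 1.116 for Mki67, -0.387 to 0.838 for Cdc20, -0.302 to 1.128 for Rrm2, -0.098 to 0.367 for Pcna, -0.305 to 0.823 for Cdk1 and -0.023 to 0.391 for Ndc80. Against untreated they were -0.587 to 1.021 for Mki67, -0.452 to 0.773 for Cdc20, -0.305 to 1.125 for Rrm2, -0.039 to 0.684 for Pcna and -0.186 to 1.012 for Cdk1. Quantile normalization turned Cdc20 against untreated to -0.065. Leaving out minoxidil array 1 and untreated array 1 together, chosen after seeing the data, turned Mki67 to -0.290, Cdc20 to -0.078, Pcna to -0.039 and Cdk1 to -0.186 against untreated. Where a value turned, the cause was not tested beyond the array left out. With the replicate number as a block, 0 genes were called. The median against keratin stayed at 0.147, which a block cannot change, as each group has 1 array of each number. The choice of variance model cannot change it either, so these settings do not challenge that value. Deviations of same-numbered arrays correlated at r = 0.112 to 0.594 between groups, which is a hint from the data and not part of the design. The array number limits all of these values, and intensities near nonspecific controls limit the dim genes.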
